A study of Mus musculus with 6 samples.

Results

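Reln, which encodes the secreted protein reelin, and Dab1, which encodes the adaptor that passes the reelin signal on inside neurons, were followed at the level of single CpGs in neocortex of mice at postnatal day 5. The groups were 3 Chd8+/- samples, heterozygous for the gene of the chromatin remodeller Chd8, and 3 wild-type (WT) samples. The labels give no allele, strain or sex of the mice, and do not say that each sample is its own animal. The p-values therefore reflect how these 6 samples scatter, which may be partly technical. The assay was RRBS (reduced representation bisulfite sequencing): MspI cuts DNA at CCGG, and bisulfite then converts cytosines that carry no methyl group. RRBS shows no genotype, so the Chd8 label of a sample could not be checked here.

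CpGs were taken from set intervals of chromosome 5 for Reln and chromosome 4 for Dab1 and its flank (mm39), after the reads of both strands had been added. Only cytosines with at least 10 reads were listed, so a strand with fewer reads added none to its CpG. A CpG was kept with at least 10 reads on this count in at least 2 samples of each genotype. This left 480 of 864621 autosomal CpGs: 111 at Reln (chr5:22090773-22551130), 220 in a 1 Mb region that holds the flank and the first part of Dab1 (chr4:103045989-103992734) and 149 in the rest of Dab1 past that region (chr4:104015349-104600112). Mean levels were taken over the 317 of them with at least 10 reads in all 6 samples, which were 71, 144 and 102 in the same order. Median depth per CpG and sample over these 317 CpGs was 56, 40 and 45 reads in the 3 intervals.

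That 1 Mb region was chosen on the contrast described here. It was the only one of 2084 autosomal regions (0.0480%) with an adjusted p under 0.05 in limma, at 0.0442. The call was lost after centring each sample on its autosomal mean, at a minimum of 20 reads, with shifted boundaries, and without any 1 sample (lowest adjusted p over all regions 0.0650 to 0.388 in limma). The next region, chr17:38000001-39000000, lay outside that threshold with an adjusted p of 0.162 in limma and a difference of 5.32 percentage points. Values inside the chromosome 4 region are therefore given as a description with no test. The Reln interval and the CpGs of Dab1 past the region played no part in that choice, and were tested.

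The Chd8+/- libraries were the shallower ones throughout, with 32285980 to 39820333 against 45498222 to 54818138 reads summed over CpG cytosines. Chromosome X took 2.56% of this coverage in Chd8+/- replicate 3 and 2.58% in WT replicate 3, against 1.18% to 1.21% in the other libraries. The autosomal mean level was 47.8%, 48.1% and 49.0% in Chd8+/- and 47.7% in each WT sample, a difference of 0.599 points, and 75.3% of the 2084 regions were higher in Chd8+/-.

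Reelin is released by Cajal-Retzius cells at the surface of the developing cortex and later by interneurons. It binds the receptors Vldlr and Lrp8 on migrating neurons, where Src family kinases such as Fyn phosphorylate Dab1. The signal guides the layering of the neocortex and is then ended by breakdown of phosphorylated Dab1. In mice, loss of reelin gives the reeler phenotype and loss of Dab1 the closely similar scrambler phenotype. Methylation of CpG-rich promoters usually goes with silencing of the gene, while the bodies of genes are mostly methylated.

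The promoters of both genes are shown because they carry the start sites by which CpGs were sorted into promoter and body. The sequences are those of RefSeq (GRCm38.p6), 5′ to 3′ on the gene's strand, from 250 bases before to 50 bases after the start. Capitals mark the CpGs that passed the coverage rule. The first is the Reln promoter, chr5:22344656-22344955 on the minus strand. The others are the downstream Dab1 promoter, chr4:104367288-104367587, and the upstream one, chr4:103619250-103619549, both on the plus strand.
Reln: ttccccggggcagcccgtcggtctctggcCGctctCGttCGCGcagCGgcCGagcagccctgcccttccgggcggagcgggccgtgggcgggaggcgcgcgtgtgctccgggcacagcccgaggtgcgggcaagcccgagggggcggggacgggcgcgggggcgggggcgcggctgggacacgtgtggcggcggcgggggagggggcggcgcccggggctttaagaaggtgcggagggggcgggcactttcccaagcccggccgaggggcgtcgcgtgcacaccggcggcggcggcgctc
Dab1 downstream: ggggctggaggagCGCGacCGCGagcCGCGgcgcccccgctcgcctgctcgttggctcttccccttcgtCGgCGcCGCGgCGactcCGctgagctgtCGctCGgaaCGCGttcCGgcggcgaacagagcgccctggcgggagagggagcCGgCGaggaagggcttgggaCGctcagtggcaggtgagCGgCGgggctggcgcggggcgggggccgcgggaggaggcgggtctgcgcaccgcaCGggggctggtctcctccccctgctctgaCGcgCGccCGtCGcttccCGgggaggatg
Dab1 upstream: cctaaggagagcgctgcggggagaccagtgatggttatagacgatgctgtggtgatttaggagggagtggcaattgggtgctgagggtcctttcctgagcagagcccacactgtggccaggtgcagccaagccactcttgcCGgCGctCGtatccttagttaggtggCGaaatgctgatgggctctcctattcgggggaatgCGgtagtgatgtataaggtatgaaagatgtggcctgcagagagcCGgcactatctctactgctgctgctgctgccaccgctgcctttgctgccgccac

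Both the Reln promoter and the downstream Dab1 promoter are dense in CpGs, with 47 and 46 in 300 bases, whereas the upstream Dab1 promoter has 12. The median of 32851 promoter sequences is 7, and 1.44%, 1.65% and 39.6% of them hold at least as many CpGs as these 3. The MspI site CCGG, which reads the same on both strands, occurs 6 times in the Reln promoter, 3 times in the downstream and 2 times in the upstream Dab1 promoter, and 52.8% of all promoter sequences hold it. The GC box core GGGCGG, searched on both strands and allowed to overlap CCGG, occurs 6 times in the Reln promoter, 1 time in the downstream Dab1 promoter and 0 times in the upstream one. Of all promoter sequences 35.7% hold it.

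Since the sequences follow another build than the methylation calls, each was placed on mm39 by its CpG spacing alone. Every CpG listed in any library within the 300 bases had to fall on a CpG of the sequence. At the best position 30 CpGs matched for Reln, 29 for downstream Dab1 and 8 for upstream Dab1, against 3, 4 and 2 at the next best position in the interval. The upstream Dab1 promoter is thus placed on fewer matches. The start sites came out at chr5:22549703 for Reln, chr4:104224735 for downstream Dab1 and chr4:103476697 for upstream Dab1. The Dab1 starts lie 748 kb apart, and the upper end of the chosen region falls between them.

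At Reln, the promoter CpGs read in all 6 samples were almost free of methylation and the body was heavily methylated in both genotypes. Neither differed between Chd8+/- and WT beyond the spread of the samples. The promoter CpGs so read lay at chr5:22548786-22549218 and chr5:22550199-22550497, outside the sequence shown above. No CpG of that sequence was read in all 6 samples, so the CpG-dense bases at the start do not enter the promoter level. Over the 17 CpGs within 1000 bp of the start, the level was 0.131%, 0.689% and 0.776% in Chd8+/- and 0.492%, 0.274% and 1.51% in WT. The groups overlapped, and WT replicate 3 was the highest sample. The means were 0.532% ± 0.350 in Chd8+/- and 0.757% ± 0.657 in WT (SD, n = 3 each), a difference of −0.225 points (exact two-sided permutation p = 0.8; 3 samples against 3 cannot give less than 0.1).

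The Reln body, taken as the 49 CpGs from the promoter to the lower end of the interval, stood at 83.7%, 81.8% and 77.7% in Chd8+/- and at 79.2%, 81.1% and 80.2% in WT. Chd8+/- replicates 1 and 2 were the highest of the 6 samples and Chd8+/- replicate 3 the lowest. The means were 81.1% ± 3.07 and 80.2% ± 0.959 (SD, n = 3 each) in Chd8+/- and WT, a difference of 0.935 points with a standard error of 1.85 (exact two-sided permutation p = 0.6). Just outside the promoter, 5 CpGs upstream of it were partly methylated, at 14.5%, 16.8% and 22.4% in Chd8+/- and 17.7%, 12.9% and 9.23% in WT. They differed by 4.63 points with overlapping groups (exact permutation p = 0.3).

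**Figure D1:**
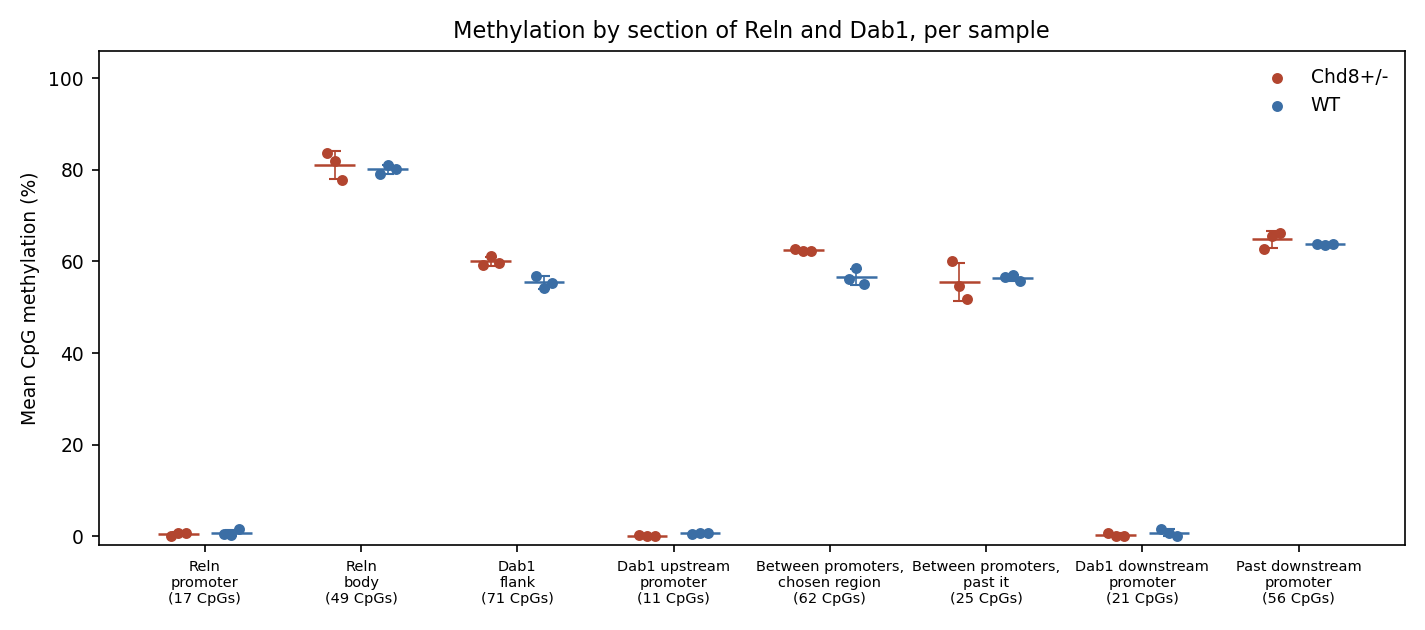
Mean methylation (%) of the CpGs covered in all 6 samples, by section of Reln and Dab1. Each point is a sample, the long bar is the mean of 3 samples and the whisker its SD, with Chd8+/- left of WT. The 3 promoters lie near 0 in both genotypes, and the groups separate in the Dab1 flank and between the Dab1 promoters within the chosen region, the sections picked on this contrast.

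Over the whole Reln interval the level was 57.4% ± 1.76 in Chd8+/- and 56.4% ± 0.467 in WT (SD, n = 3 each), a difference of 0.918 points with a standard error of 1.05 (exact two-sided permutation p = 0.5). At a minimum of 20 reads the difference was −0.839 points, and over all 111 kept CpGs it was 0.0693 points. With each CpG counted by its reads it came to 5.39 points with an exact permutation p of 0.1, the smallest possible, so the size of this value rests on how CpGs are counted. Of the 71 CpGs, 35 were higher and 25 lower in Chd8+/- and 11 were equal, with a median difference of 0. Groups did not overlap with Chd8+/- higher at 2 CpGs, against 3.48% of autosomal CpGs, and with Chd8+/- lower at 3, against 2.32%. The 1 Mb region that holds Reln differed by 0.40 points with a standard error of 0.660 and an adjusted p of 0.861 in limma.

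Single sites of Reln were tested with edgeR on methylated and unmethylated reads, adjusted over all 609673 autosomal CpGs that varied. None of the 75 Reln CpGs tested was called at an adjusted p under 0.05, as none was on any autosome (0%). The lowest adjusted p anywhere was 0.234 in edgeR, and at an unadjusted p under 0.05 edgeR gave 18394 CpGs and limma 31183. In the Reln interval 5 CpGs had an unadjusted edgeR p under 0.05, 3 higher and 2 lower in Chd8+/-, which is 5 of 75 where 3.02% of all CpGs tested did (1.75% higher and 1.27% lower). The smallest p fell on chr5:22549218 in the Reln promoter, at 0 in each Chd8+/- sample and 1.69%, 3.08% and 5.38% in WT (edgeR adjusted p = 1). Counts of 0 in 63 to 140 reads allow a level of up to 2.14%, 3.23% and 4.76% in the Chd8+/- samples, limits that reach into the WT range.

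The other 2 CpGs singled out by p lay in the Reln body and differed in opposite directions. At chr5:22090942 the level was 97.4%, 91.7% and 98.9% in Chd8+/- and 100% in each WT sample (edgeR adjusted p = 1). At chr5:22454965 it was 100% in each Chd8+/- sample and 87.0%, 92.3% and 87.9% in WT (edgeR adjusted p = 1). In both the groups did not overlap, and in both the group at 100% had at least 1 library with 60 reads or fewer.

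Windows of 1000 bp along Reln differed by a few points in either direction. Of 11 windows with at least 3 CpGs, 7 were higher and 4 lower in Chd8+/-, where 53.0% of all windows were higher. By edgeR 0 of 68160 windows tested on the autosomes were called (0%; 2566 at an unadjusted p under 0.05 in edgeR and 3544 in limma). The groups did not overlap in 1 window with Chd8+/- higher and 1 with Chd8+/- lower, where 5.44% and 3.92% of all windows did so. The 5 windows with the largest absolute differences ran between −7.45 and 6.65 points, in pooled reads. In the window from 22158001, Chd8+/- replicate 3 was lowest: the level was 74.3%, 68.4% and 55.7% in Chd8+/- and 72.2%, 74.5% and 74.0% in WT.

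The window from 22551001, upstream of the Reln promoter, stood at 18.3%, 15.1% and 20% in Chd8+/- and 17.0%, 10.7% and 5.79% in WT. Its groups overlapped. At 22276001 the level was 100% in each Chd8+/- sample and 92.0%, 92.7% and 98.6% in WT, so the groups were apart (edgeR adjusted p = 1.00). At 22174001 it was 86.8%, 89.4% and 87.7% in Chd8+/- and 91.1%, 93.3% and 94.9% in WT, apart in the other direction (edgeR adjusted p = 1.00). The window from 22202001 differed by 5.53 points with overlapping groups.

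At Dab1, both promoters were unmethylated in both genotypes, and the chosen region was higher in Chd8+/- on both sides of the upstream promoter. Over its 144 CpGs the level was 56.2%, 57.0% and 56.2% in Chd8+/- and 52.2%, 51.9% and 51.1% in WT, the values that chose the region. The means were 56.5% ± 0.448 and 51.8% ± 0.594 (SD, n = 3 each) in Chd8+/- and WT, 4.73 points apart. Without Chd8+/- replicate 3, 1 of the 2 libraries with the larger share of chromosome X, the difference was 4.87 points. Without WT replicate 3, the other, it was 4.40 points.

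That gap depends on which CpGs enter. Over all 220 kept CpGs the mean of the differences was 2.33 points. The 76 CpGs that passed the rule but had no strand with 10 reads in some sample differed by −2.22 points on average. Of them, 17 were higher, 31 lower and 28 equal in Chd8+/-. Over all autosomes both kinds of CpG differed by a similar amount, 0.599 points for those read in all 6 samples and 0.530 points for the others.

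The upstream Dab1 promoter was not among the higher CpGs. Its 11 CpGs stood at 0.308%, 0 and 0 in Chd8+/- and 0.417%, 0.708% and 0.669% in WT. All Chd8+/- samples were lower, by 0.495 points on average. No methylated read was seen in 412 and 541 reads of Chd8+/- replicates 2 and 3, which allows a level of up to 0.728% and 0.555%, limits that reach into the WT range. The downstream Dab1 promoter, outside the chosen region, stood at 0.749%, 0.0588% and 0 over 21 CpGs in Chd8+/- and 1.60%, 0.740% and 0.0831% in WT. Its groups overlapped, with a difference of −0.538 points (exact two-sided permutation p = 0.3).

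The higher level lay in the flank and in the stretch between the Dab1 promoters. The flank, 71 CpGs upstream of the upstream promoter, stood at 59.2%, 61.2% and 59.6% in Chd8+/- and 56.8%, 54.1% and 55.4% in WT, a difference of 4.61 points. The 62 CpGs from the upstream promoter to the end of the region, inside the upstream transcript of Dab1, stood at 62.7%, 62.3% and 62.2% in Chd8+/- and 56.2%, 58.5% and 55.2% in WT, a difference of 5.79 points. In both stretches the groups were apart, with Chd8+/- on top.

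Sorted by level, 25 CpGs of the region were below 10% in every sample and summed to a difference of 2.73 points. Another 7 were above 90% in every sample and summed to −7.39 points. The remaining 112 CpGs averaged 66.0%, 67.2% and 66.1% in Chd8+/- and 60.9%, 60.5% and 59.5% in WT, a mean difference of 6.12 points. A CpG with a large difference can only fall among these, so the split itself shows nothing about where changes occur. Of these 112, 81 were higher and 31 lower in Chd8+/-.

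Taken CpG by CpG, 87 of the 144 were higher, 39 lower and 18 equal in Chd8+/-, with a median difference of 2.82 points. Over all autosomal CpGs read in all 6 samples 40.9% were higher and 37.3% lower. The groups did not overlap at 16 CpGs with Chd8+/- higher (11.1%, against 3.48% of autosomal CpGs) and at 1 with Chd8+/- lower (0.694%, against 2.32%). These counts come from the contrast that chose the region.

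CpGs that lie close together share MspI fragments and reads and are no separate measurements. Chained at gaps of up to 200 bp, the 144 CpGs formed 61 loci, of which 41 were higher and 20 lower in Chd8+/-, where 51.8% of all autosomal loci were higher. At 10 loci the groups did not overlap with Chd8+/- higher, and at 0 with Chd8+/- lower, where 5.17% and 3.53% of all autosomal loci did so. Counting each locus once, the region differed by 4.34 points.

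**Figure D2:**
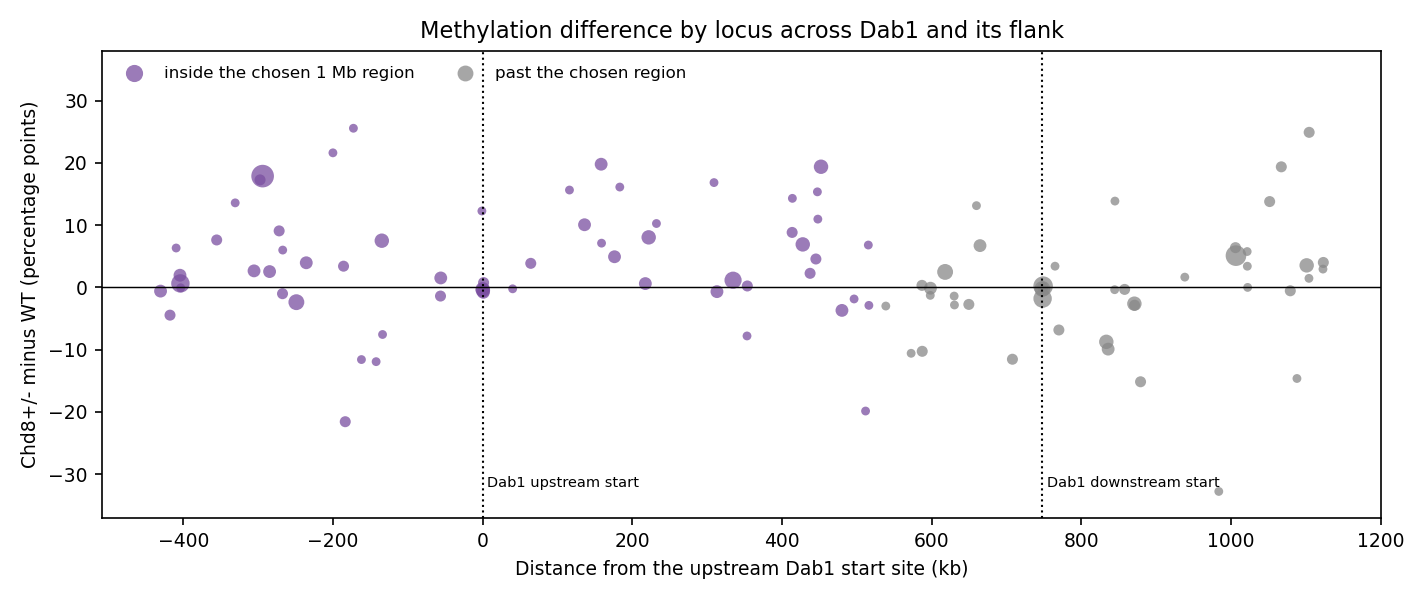
Difference in methylation, Chd8+/- minus WT in percentage points, of each locus against its distance in kb from the upstream Dab1 start. Each point is a locus and its area grows with the number of CpGs, purple inside the chosen region and grey past it. Purple points lie mostly above 0 (41 of 61), while 19 of the 43 grey points do.

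A single locus in the flank carried 28.9% of the summed difference. It spans chr4:103182319-103182606, 11.4 kb past the start placed for Oma1, the gene of a mitochondrial protease, at −294 kb from the upstream Dab1 start. Its 11 CpGs averaged 36.9%, 37.1% and 23.5% in Chd8+/- and 13.0%, 9.52% and 21.4% in WT. Chd8+/- replicate 3 lay only just above WT replicate 3, and the means were 17.9 points apart. In pooled reads the same CpGs differed by 10.6 points. Without this locus, left out after its value was seen, the region differed by 3.64 points.

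The next loci in weight lay between the Dab1 promoters. At chr4:103928689-103928851, 452 kb past the upstream start, 4 CpGs stood at 86.2%, 94.0% and 95.7% in Chd8+/- and 71.0%, 68.0% and 78.8% in WT. At chr4:103634827-103634980, 158 kb past it, 3 CpGs stood at 61.5%, 53.2% and 58.2% in Chd8+/- and 26.1%, 44.0% and 43.5% in WT. At both loci the groups were apart, with Chd8+/- higher by 19.4 and 19.8 points on average. In pooled reads the same CpGs differed by 13.5 and 11.3 points. The first 3 loci by weight made up 49.0% of the sum and the first 5 made up 58.8%. Without the first 3 the region differed by 2.76 points, and without the first 5 by 2.34 points.

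Of the other loci apart between the groups, chr4:103698340-103698527 stood at 32.6%, 26.3% and 23.9% in Chd8+/- and 19.6%, 23.7% and 15.3% in WT. Its CpGs differed by 8.04 points, and by 11.5 points in pooled reads. Among highly methylated loci, chr4:103341641-103341845 in the flank stood at 96.0%, 97.7% and 100% in Chd8+/- and 91.6%, 86.6% and 93.0% in WT. The strongest opposite locus was chr4:103292827-103292949, at 73.8%, 86.8% and 22.8% in Chd8+/- and 93.2%, 76.6% and 78.3% in WT. There Chd8+/- replicate 3 alone was low.

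Among the 144 single CpGs of the region read in all 6 samples, the largest gap was at chr4:103634827 between the Dab1 promoters. It was 100% methylated in each Chd8+/- sample and 26.7%, 46.4% and 71.9% methylated in WT, at 15 to 32 reads. With 22, 21 and 15 reads all methylated, an unmethylated share of up to 13.6%, 14.3% and 20% remains possible in the Chd8+/- samples. A pair of CpGs at the locus 452 kb past the upstream start was also among the 10 with the largest positive difference: chr4:103928689 was at 100% in each Chd8+/- sample and 56.2%, 70.6% and 96.2% in WT. At chr4:103928694 the level was 84.6%, 100% and 100% in Chd8+/- and 75.0%, 58.8% and 66.7% in WT.

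The flank locus past the Oma1 start held 4 of these 10. The end of Oma1 was not placed, so whether the locus lies inside that gene is not known here. At chr4:103182594 the level was 53.8%, 92.9% and 50% in Chd8+/- and 21.1%, 11.4% and 28.6% in WT. At chr4:103182579 it was 38.5%, 60% and 33.3% in Chd8+/- and 16.2%, 12.1% and 19.0% in WT. The groups were apart at these CpGs and overlapped at the remaining pair, chr4:103182597 and chr4:103182606, which differed by 35.9 and 30.0 points. Reads ran from 12 to 38 per sample over the 4 CpGs, and they share fragments.

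The other CpGs of the 10 were chr4:103178996, chr4:103303807 and chr4:103612693. At chr4:103178996 the level was 51.6%, 100% and 97.1% in Chd8+/- and 20%, 80% and 36.4% in WT, with overlap. At chr4:103303807 it was 100%, 92.6% and 83.3% in Chd8+/- and 65.4%, 79.6% and 54.3% in WT. At chr4:103612693, the deepest of the 10 at 48 to 100 reads, it was 56.9%, 45.8% and 60.9% in Chd8+/- and 45.4%, 27.6% and 22.0% in WT. The last 2 of these had groups apart.

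Among the same 144 CpGs, the 5 most negative differed by −13.6 to −25.3 points, and the groups overlapped at all 5. At the lowest, chr4:103292949, the level was 100%, 81.2% and 19.0% in Chd8+/- and 86.4%, 89.8% and 100% in WT. At chr4:103789661, inside Dab1, it was 67.9%, 73.1% and 10% in Chd8+/- and 77.8%, 75.0% and 66.7% in WT. Chd8+/- replicate 3 was by far the lowest sample at both. The others were chr4:103058665, chr4:103292827 and chr4:103988294.

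Among the 76 CpGs that had no strand with 10 reads in some sample, gaps of this size occurred in both directions. They were singled out here after their values were seen. At chr4:103157247 in the flank the level was 10% and 67.6% in Chd8+/- replicates 1 and 3 and 94.4%, 100% and 100% in WT, at 13 to 54 reads. Its groups were apart, with Chd8+/- lower by 59.4 points. Its neighbours chr4:103157253 and chr4:103157208 were lower in Chd8+/- by 41.8 and 29.5 points, with overlapping groups. At chr4:103058850 the level was 57.5% and 90% in Chd8+/- replicates 1 and 3 and 26.3%, 34.0% and 29.1% in WT, at 10 to 55 reads, so Chd8+/- was higher by 43.9 points with groups apart. Chd8+/- replicate 2 had no value at these 4 CpGs.

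**Figure D3:**
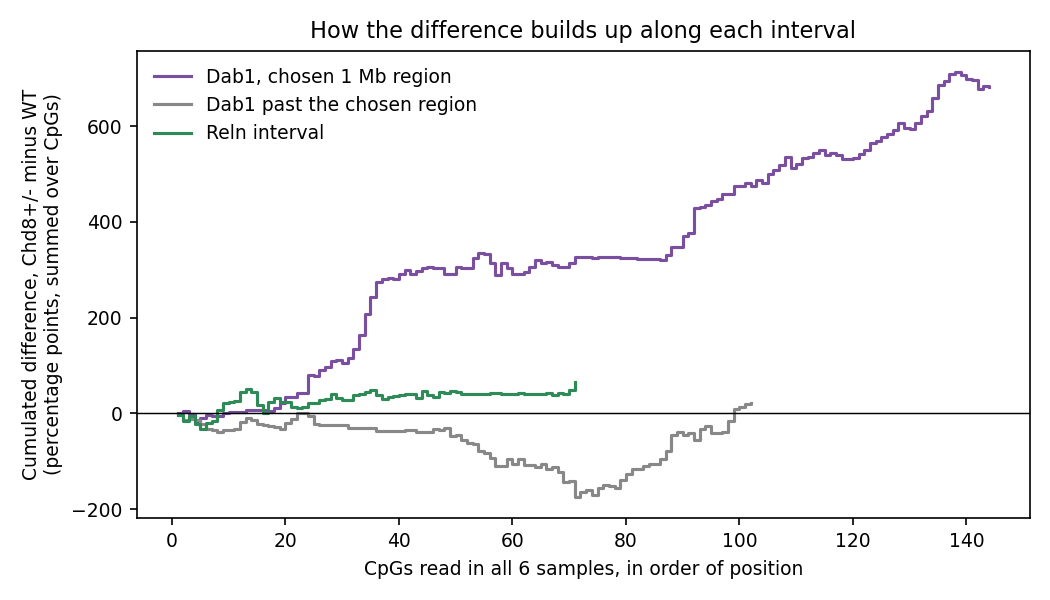
Running sum of the per-CpG difference, Chd8+/- minus WT in percentage points, over the CpGs of each interval read in all 6 samples, in order of position. The line of the chosen region climbs in steps to 681 over 144 CpGs, that of Dab1 past it falls and returns to 20.8 over 102 CpGs, and that of Reln ends at 65.2 over 71 CpGs.

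Along the region 3 stretches of 100 kb made up most of the summed difference, which also grows with the number of CpGs in a stretch. The stretch from 103100001 held 22 CpGs at 46.2%, 50.2% and 44.6% in Chd8+/- and 31.1%, 32.6% and 39.7% in WT, a difference of 12.5 points and 40.5% of the sum. The stretch from 103600001, inside Dab1, held 18 CpGs at 58.4%, 54.5% and 52.8% in Chd8+/- and 47.2%, 48.2% and 43.4% in WT, a difference of 8.97 points and 23.7% of the sum. The stretch from 103900001 held 21 CpGs, 5.53 points higher in Chd8+/-, and 17.1% of the sum. The remaining 7 stretches differed by 0.346 to 5.78 points, all higher in Chd8+/- on average, with groups apart in 1 of them, from 103800001. The stretches from 103500001 and 103700001 differed by 5.78 and 5.01 points, over 4 and 5 CpGs. How often groups are apart in such stretches over all autosomes was not computed.

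Of 21 windows of the region 17 were higher and 4 lower in Chd8+/-, and the groups did not overlap in 6 with Chd8+/- higher and 1 with Chd8+/- lower, where 5.44% and 3.92% of all windows did so. The 5 with the largest absolute differences were all higher in Chd8+/-, by 10.6 to 13.5 points in pooled reads, and began at 103182001, 103634001, 103698001, 103890001 and 103928001. In the window from 103890001, inside Dab1, the level was 99.6%, 100% and 96.4% in Chd8+/- and 93.5%, 81.5% and 86.7% in WT. In the window from 103928001 the level was 82.4%, 89.3% and 92.1% in Chd8+/- and 75.6%, 70.8% and 77.0% in WT. In the window from 103182001 it was 22.6%, 22.9% and 21.2% in Chd8+/- and 9.54%, 6.85% and 18.4% in WT, where WT replicate 3 again stood closest to Chd8+/-.

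Past the chosen region, where Dab1 goes on, the mean level of the genotypes was close with each CpG read in all 6 samples counted equally. The 102 CpGs up to the end of the interval stood at 49.3%, 49.3% and 49.0% in Chd8+/- and 49.3%, 49.1% and 48.7% in WT. The groups overlapped. The means were 49.2% ± 0.170 and 49.0% ± 0.268 (SD, n = 3 each) in Chd8+/- and WT, a difference of 0.204 points with a standard error of 0.184 (exact two-sided permutation p = 0.4).

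This small difference moved with the way CpGs were counted. Over all 149 kept CpGs the mean of the differences was 1.25 points, at a minimum of 20 reads it was −0.900 points (exact permutation p = 0.4), and after centring each sample on its autosomal mean it was −0.395 points (exact permutation p = 0.6). Counted by reads it was 4.44 points with an exact permutation p of 0.1, the smallest possible. Counted in that way the chosen region differed by 5.76 points and the Reln interval by 5.39 points, so these intervals lay close together. The autosomal difference counted by reads was not computed. The 47 CpGs that passed the rule without 10 reads in all 6 samples differed by 3.51 points, 15 higher, 3 lower and 29 equal in Chd8+/-, opposite in sign to such CpGs inside the region.

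The stretch between the Dab1 promoters gave different values on either side of the boundary. Its 25 CpGs past the region stood at 60.1%, 54.7% and 51.7% in Chd8+/- and 56.5%, 57.0% and 55.7% in WT, a difference of −0.886 points (exact two-sided permutation p = 0.7), beside 5.79 points in the chosen part. Over all kept CpGs the mean of the differences was 1.83 points past the region (31 CpGs) and 3.03 points in the chosen part (82 CpGs). The sign past the boundary thus turned on the coverage rule. The gap between the 2 parts was not tested, since 1 of them was chosen for its value. The 56 CpGs past the downstream promoter, in the part of Dab1 that both transcripts share, stood at 62.7%, 65.4% and 66.2% in Chd8+/- and 63.9%, 63.7% and 63.9% in WT. They differed by 0.969 points with Chd8+/- replicate 1 the lowest and replicate 3 the highest of the 6 samples (exact permutation p = 0.4).

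Beneath this mean, stretches of the Dab1 body past the region differed in both directions. From 104300001, 19 CpGs stood at 52.7%, 50.9% and 54.1% in Chd8+/- and 59.0%, 56.2% and 58.1% in WT, with all Chd8+/- samples lower and a difference of −5.17 points. From 104500001, 15 CpGs stood at 67.3%, 69.0% and 74.6% in Chd8+/- and 60.8%, 64.5% and 61.8% in WT, with all Chd8+/- samples higher and a difference of 7.93 points. These stretches were singled out after their values were seen. The autosomal share of 100 kb stretches with groups apart was not computed, so how usual such separations are is not known here.

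Of the 102 CpGs past the region, 44 were higher, 43 lower and 15 equal in Chd8+/-, with a median of 0, and the groups did not overlap at 1 with Chd8+/- higher and 4 with Chd8+/- lower (against 3.48% and 2.32% of autosomal CpGs). Of 43 loci, 19 were higher, 22 lower and 2 equal, with groups apart at 1 with Chd8+/- higher and 2 with Chd8+/- lower, where 5.17% and 3.53% of all autosomal loci were. The largest locus by weight, chr4:104581146-104581184, had 2 CpGs at 0, 50.7% and 93.3% in Chd8+/- and 18.7%, 27.8% and 23.0% in WT. Its Chd8+/- samples spanned nearly the whole scale. The locus apart upwards, chr4:104543931-104543962, stood at 79.2%, 61.5% and 58.3% in Chd8+/- and 52.0%, 35.0% and 54.0% in WT. Of the 2 apart downwards, chr4:104309974-104310158 stood at 12.6%, 0.962% and 9.60% in Chd8+/- and 13.7%, 19.9% and 15.8% in WT.

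By edgeR 0 of the 105 CpGs tested past the region were called, and 1 had an unadjusted p under 0.05, against 0% called and 3.02% under that p among all CpGs tested. It was chr4:104355732, past the downstream promoter, at 87.2%, 93.2% and 88.9% in Chd8+/- and 96.9%, 100% and 100% in WT (edgeR adjusted p = 1). The CpGs with the next smallest p were chr4:104094528 and chr4:104225756, with an edgeR adjusted p of 1 for both, and their groups overlapped. At chr4:104094528 the level was 100%, 100% and 71.7% in Chd8+/- and 89.5%, 84.0% and 56.4% in WT.

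Among 9 windows past the region 5 were higher and 4 lower in Chd8+/-, where 53.0% of all windows were higher. In 0 of the 9 the groups were apart, against 5.44% of all windows with Chd8+/- higher and 3.92% with Chd8+/- lower. The 5 with the largest absolute differences began at 104312001, 104141001, 104483001, 104347001 and 104094001, and differed by −9.90, 9.53, 6.14, −3.76 and 3.08 points. In the window from 104312001 the level was 15.8%, 11.3% and 30.1% in Chd8+/- and 24.4%, 26.9% and 35.6% in WT. The window that holds the downstream start, from 104224001, was at 0 in all Chd8+/- samples and at 2.96%, 0.844% and 0 in WT.

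The 1 Mb regions on either side of the chosen one differed little between the genotypes. The region directly below it stood at 51.5%, 51.6% and 56.5% in Chd8+/- and 54.0%, 53.2% and 51.9% in WT, 0.115 points apart with an adjusted p of 0.989 in limma. The region directly above it stood at 57.4%, 59.2% and 59.7% in Chd8+/- and 58.6%, 57.7% and 58.7% in WT, 0.418 points apart with an adjusted p of 0.879 in limma. The groups overlapped in both regions. Of the 158 CpGs of the region directly above, 102 are those of Dab1 past the chosen region, already described. With the boundaries shifted by 500 kb, the part from 102500001 differed by 1.57 points and that from 103500001 by 1.73 points, with adjusted p of 0.598 and 0.535 in limma, and no region of the genome passed.

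**Figure D4:**
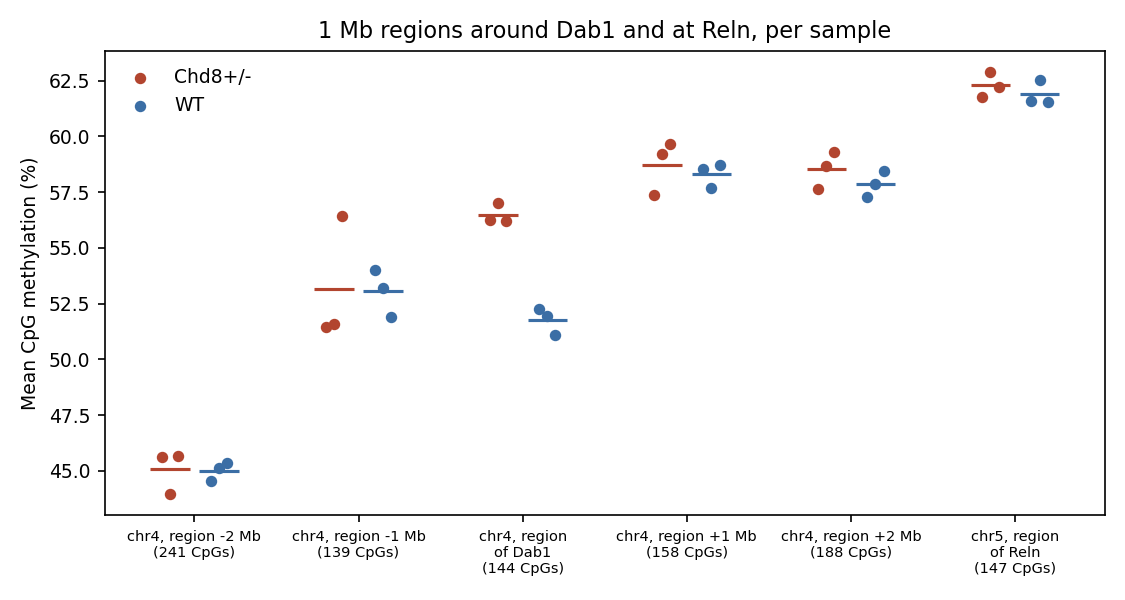
Mean methylation (%) per sample of the 1 Mb region of Dab1, the regions 1 and 2 Mb on either side of it on chromosome 4, and the region of Reln on chromosome 5. Each point is a sample, the bar is the mean of 3 samples, Chd8+/- stands left of WT, and the axis does not start at 0. The groups are apart in the region chosen for this contrast, at 56.2% to 57.0% in Chd8+/- against 51.1% to 52.2% in WT, and overlap in the others.

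The promoters of other reelin pathway genes were unmethylated in both genotypes. Of 23 genes on a list of receptors, kinases, adaptors and downstream effectors, 17 had a promoter placed on mm39 with at least 3 CpGs read in all 6 samples. All 17 stood below 5% in WT, as did 90.1% of 6683 placed promoters. The median difference was −0.211 points, against 0 over all placed promoters, with 7 higher and 10 lower in Chd8+/-. The reelin receptors were among them: the Lrp8 promoter averaged 0.241% ± 0.225 in Chd8+/- and 0.540% ± 0.470 in WT (SD, n = 3 each). The Vldlr promoter averaged 0.587% ± 0.535 in Chd8+/- and 0.324% ± 0.0464 in WT (SD, n = 3 each).

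The largest of these differences were of about 2 points. Cul5, part of the ubiquitin ligase that removes phosphorylated Dab1, stood at 2.44%, 3.92% and 0 in Chd8+/- and at 0 in each WT sample over 3 CpGs (exact permutation p = 0.4). Akt1, a kinase downstream of Dab1, stood at 0.924%, 0 and 0.535% in Chd8+/- and 0, 3.46% and 3.19% in WT (exact permutation p = 0.4). Fyn, the kinase that phosphorylates Dab1, stood at 0.617%, 1.98% and 2.04% over 9 CpGs in Chd8+/- and at 0 in each WT sample. It was the 1 promoter of the 17 with groups apart, where 3.50% of placed promoters were apart with Chd8+/- higher and 5.39% with Chd8+/- lower (exact two-sided permutation p = 0.1, the smallest possible). A count of 0 in 240, 315 and 112 reads allows up to 1.25%, 0.952% and 2.68% in the WT samples.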

How the data were processed

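Per the file headers, the authors deposited per library a table of CpG cytosines with coverage as a count of reads and the share read as cytosine as percent. The lowest coverage listed was 10 reads. Bismark 0.20.0, Trim Galore 0.4.4 and SAMtools 1.9, with the build mm39, are named in the submitters' processing notes. Their settings and any removal of duplicate reads are not given in the sources used here. Per the labels' protocols, DNA was digested with MspI, size-selected and converted with bisulfite. Coverage multiplied by the percent was rounded to methylated reads. Reads carry no molecular identifiers in the labels, so limits for shares of 0 (3 counts of the reads behind the value) cover counting error only. The deposited conversion statistics were not used here.

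Strands of a CpG were merged, from the listed cytosines only. CpG levels, in percent, were averaged without weights per sample over CpGs with at least 10 reads in all 6 samples, and compared by exact two-sided permutation tests over samples. In edgeR 4.0.16 (R 4.3.3), the quasi-likelihood test was run on methylated and unmethylated counts of all autosomal CpGs with at least 10 reads in at least 2 samples per genotype, and of all windows of 1000 bp with at least 3 CpGs, with a coverage term per sample. The limma 3.58.1 fit used mean levels of 1 Mb regions with at least 50 CpGs. The edgeR and limma p-values were adjusted after Benjamini and Hochberg over the whole autosomal table, at a threshold of 0.05. The exact permutation p-values were not adjusted. All 3 procedures were tested on simulated data. Python 3.11.15, numpy 2.4.6, pandas 2.3.3 and matplotlib 3.10.9 did the rest.

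No mm39 annotation was used here. RefSeq promoter sequences (GRCm38.p6) were placed on mm39 by CpG spacing, with at least 10 matched CpGs and a single position on the chromosome; the upstream Dab1 promoter, with 8, was placed within its interval only. Of 13800 autosomal sequences with at least 10 CpGs, 7283 were placed at 1 position, and 7280 of these lay in the order of their neighbours. The end of each gene was not placed, so the bodies run to the ends of the intervals. A promoter is the 1000 bp on either side of a start.

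The members, lists and tests were chosen with earlier results of these data known. The named items are the promoters, the 5 windows per interval with the largest absolute difference, the 3 CpGs with the smallest p outside the chosen region, the 10 CpGs with the largest positive and the 5 with the largest negative difference inside it, among CpGs read in all 6 samples, stretches of 100 kb, and the pathway list with its 3 largest promoter differences; loci and 4 CpGs not read in all samples were added. Of the 23 genes listed, 18 were in the sequence table. Alternatives were a minimum of 20 reads, CpGs of at least 2 samples per genotype, weighting by reads, centring on the autosomal mean, strands kept apart, limma in place of edgeR, an adjusted p of 0.1, windows of 500 and 2000 bp, regions shifted by 500 kb, a replicate block and each sample left out. Leaving out the heaviest locus and counting each locus once were added after seeing the data.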

Additional observations from a re-analysis of the deposited data

How the results depend on the processing

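Calls: edgeR called 0 CpGs and 0 windows, also under limma, 20 reads, an adjusted p of 0.1 and the other window sizes; leaving out 1 sample gave 0 to 1 CpGs (1 without Chd8+/- replicate 1 and 1 without Chd8+/- replicate 3) and 0 windows. The 1 Mb region on chromosome 4 passed limma only in the fit as reported: 0 regions passed after centring, at 20 reads, with shifted boundaries, and without any 1 sample (0 to 0 regions, lowest adjusted p 0.0650 to 0.388). Its difference was 2.33 points over CpGs of at least 2 samples per genotype, 5.76 weighted by reads, 4.13 centred, 3.64 without the heaviest locus, and 4.40 to 4.97 with 1 sample left out.

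Reln reversed to −0.839 points at 20 reads and ran from 0.180 to 1.89 with 1 sample left out. Its promoter reversed to 0.0436 points weighted by reads and to 0.291 over CpGs of at least 2 samples per genotype. It also reversed to 0.149 without WT replicate 3 (range −0.466 to 0.149 with 1 sample left out). Dab1 past the region reversed to −0.900 at 20 reads and −0.395 centred, and was 1.25 over CpGs of at least 2 samples per genotype (0.0572 to 0.320 with 1 sample left out). Centring and 20 reads reversed the 1 Mb regions directly below (−0.484 and −0.250; −1.53 to 0.963 with 1 sample left out), directly above (−0.181 and −0.565; −0.0393 to 1.11) and of Reln (−0.199 and −0.815). The cause was not tested.

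Deviations of same-numbered samples correlated at 0.00456, 0.000833 and 0.00233 over CpGs. Over 1 Mb regions they did so at −0.00105, −0.0406 and 0.0114, against −0.0674 to 0.0717 for samples of different numbers. Counting noise at single CpGs lowers such values, so they cannot exclude pairing. Both replicates numbered 3 had the larger share of chromosome X. The labels do not state pairs, and the numbers were not taken as such. With the replicate block, edgeR called 0 CpGs and 0 windows and limma 0 regions (lowest adjusted p 0.0721). The exact paired p was 0.75 for Reln (0.918 points), 0.75 for its promoter (−0.225 points) and 0.25 for Dab1 past the region (0.204 points). With 3 pairs 0.25 is the smallest possible p of this test. Past the region each Chd8+/- sample stood above the WT sample of the same number. Median depth per CpG and sample was 40 to 56 reads in the intervals over CpGs read in all 6 samples, which limits single CpGs.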
